A study of Homo sapiens with 12 samples.

Results

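The genes that write or support methylation of histone H3 at lysine 9 (H3K9) were examined in HAP1 cells with and without a knockout of one of them, SETDB1. The 10 genes were taken from a list of H3K9 methyltransferases and their cofactors, not from their values, and all 10 were found among the 58735 gene identifiers of the count tables, which matched GENCODE 29. They are the methyltransferases SETDB1, SETDB2, SUV39H1, SUV39H2, EHMT1 and EHMT2, the SETDB1 partners ATF7IP and ATF7IP2, the corepressor TRIM28 and the heterochromatin protein gene CBX5. HAP1 is a near-haploid human line derived from the chronic myelogenous leukemia line KBM-7. Total RNA was sequenced from wild-type (WT) HAP1 cells and from a SETDB1 knockout (KO) derivative, grown in the same medium with no treatment. For each genotype 3 libraries came from a non-directional kit, which does not mark the strand of the RNA, and 3 came from its directional version, so that there were 12 libraries. The sources used here do not say whether the KO line was 1 clone, and beyond the label of biological replicate nothing says that the libraries came from separate cultures, so p-values measure the spread between these libraries.

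Methylated H3K9 marks silent chromatin. SETDB1 places this mark at retroelements and at zinc finger gene clusters, where TRIM28, itself brought to DNA by KRAB zinc finger proteins, recruits it, and ATF7IP holds SETDB1 in the nucleus and protects it from degradation. SUV39H1 and SUV39H2 methylate H3K9 around centromeres, EHMT1 and EHMT2 work as a pair that places the lower methylation states in euchromatin, and CBX5 encodes HP1 alpha, which binds the finished mark.

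The non-directional libraries held 8921959 to 10199215 gene counts each, so that 3 counts, the limit that a count of 0 allows, equalled 0.294 to 0.336 CPM, the counts scaled to library size. All 10 genes, called the members here, passed the filter on low counts there and were tested. The directional libraries held only 532021 to 676691 gene counts, between 5.23% and 5.30% of their reads, and are described at the end. No pair of the 3 non-directional KO libraries differed beyond sampling noise (chi-square per degree of freedom 0.956 to 0.991). The WT pair of replicates 1 and 3 was at 1.03, and the WT pairs with replicate 2 were at 1.82 and 2.00. The KO libraries, labelled as biological replicates, were kept as 3. A spread at the level of sampling noise cannot show that they were separate cultures, so p-values that count them as 3 may be too small. Results with the 3 summed into 1 are given where they end a call or bear on a count. Of the 10 haematopoietic markers checked, PTPRC, CD33, CD34, MPO, SPI1 and GATA1 had at most 2 counts in any non-directional library, ITGAM had 2 to 4 and LYL1 6 to 14, while RUNX1 had 185 to 214 counts. TAL1 had 143 to 162 counts in WT and was lower in KO, with 16.2 CPM in WT and 3.23 CPM in KO. The list was thus mixed in cells whose label names a leukemia, with most markers at or near 0 but RUNX1 and TAL1 clearly detected. BCR and ABL1, joined in the fusion that defines the leukemia, were at 34.1 and 14.5 CPM in WT and at 53.0 and 38.2 CPM in KO.

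SETDB1, ATF7IP and SUV39H1 showed the widest differences between the genotypes. SETDB1 RNA was 5.24-fold lower in KO, SUV39H1 RNA was 1.67-fold lower, and ATF7IP RNA was 3.07-fold higher. CBX5 and TRIM28 were lower and SETDB2 was higher by smaller amounts. SUV39H2, EHMT1, EHMT2 and ATF7IP2 did not pass the test. In all, 6 of the 10 members passed edgeR's quasi-likelihood test at an adjusted p of 0.05, 2 higher and 4 lower in KO. The background was broad, since 51.5% of the 13778 genes tested passed, with 25.5% higher and 25.9% lower, so that 6 of 10 is near that share. At a fold of at least 2, only SETDB1 and ATF7IP remained of the members, beside 7.8% of all genes. The WT and KO libraries of 6 members did not overlap in CPM, beside 56% of all genes.

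**Figure D1:**
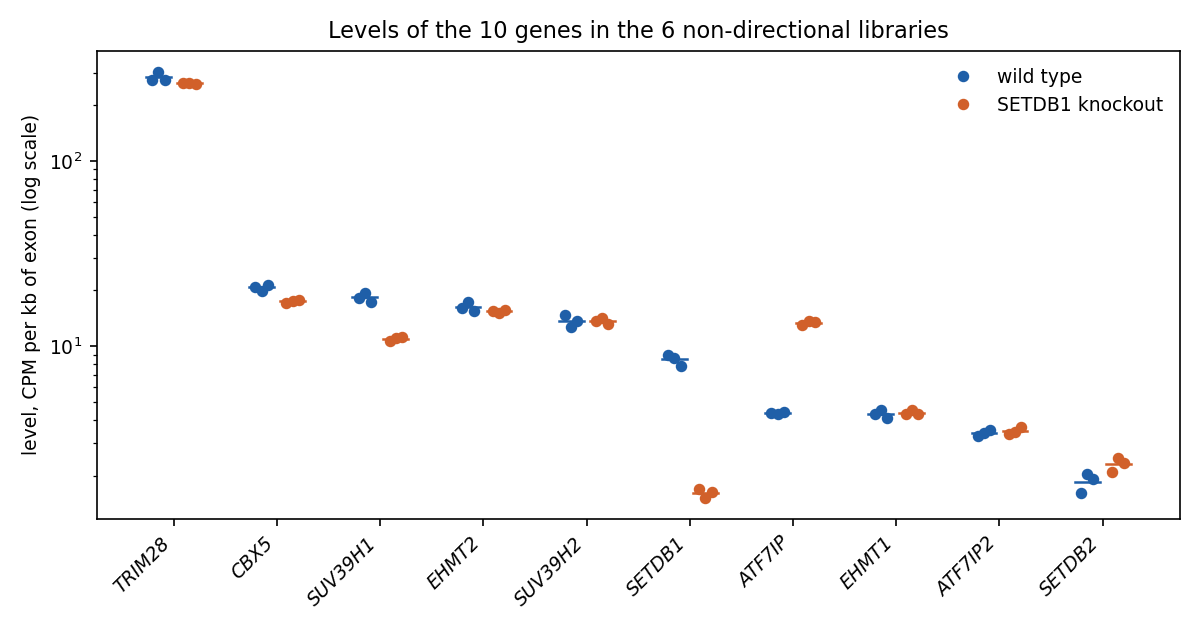
Level of each gene in each of the 6 non-directional libraries, in CPM per kilobase of annotated exon on a log axis, with WT in blue, KO in orange and a line at each mean of 3 libraries. SETDB1 fell from a WT mean of 8.50 to 1.62 and ATF7IP rose from 4.36 to 13.4, while TRIM28 stood above all others at 283 in WT.

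Per length, the members covered a wide range of levels. In WT, TRIM28 was at 283 ± 16.1 CPM per kilobase (SD, n = 3), far above CBX5 at 20.8 ± 0.750, SUV39H1 at 18.4 ± 1.03, EHMT2 at 16.3 ± 0.951 and SUV39H2 at 13.7 ± 1.05. SETDB1 followed at 8.50 ± 0.606, then ATF7IP at 4.36 ± 0.0517, EHMT1 at 4.32 ± 0.225, ATF7IP2 at 3.41 ± 0.123 and SETDB2 at 1.86 ± 0.215. In this order, SUV39H1 and EHMT2 overlapped over their libraries, as did ATF7IP and EHMT1, and the other neighbours did not. In KO, SETDB1 was the lowest of the 10 at 1.62 ± 0.0909, below SETDB2 at 2.30 ± 0.204, without overlap. By the longest annotated transcript the order of this pair turned and their libraries overlapped, with SETDB1 at 2.59 ± 0.145 and SETDB2 at 2.51 ± 0.222. ATF7IP moved up to 13.4 ± 0.380 and overlapped SUV39H2 at 13.7 ± 0.450, while SUV39H1 stood at 11.0 ± 0.266. The order between genes depended on the length used, since only 5 of the 10 kept their WT rank when the longest annotated transcript replaced the union of all exons. The union also kept bases shared with a gene on the opposite strand, 20.3% of it for SUV39H1, 13.4% for SETDB1 and 8.12% for EHMT2. Whether reads from such bases were counted for the member was not tested, so the order of near levels is uncertain.

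The targeted gene was read first. SETDB1 (ENSG00000143379, chr1:150926263-150964744, plus strand, GRCh38) encodes a methyltransferase that can take H3K9 to its trimethylated state. It had 651, 543 and 519 counts in WT replicates 1 to 3, and 118, 106 and 118 counts in KO replicates 1 to 3. All 3 KO libraries were far below all 3 WT libraries, yet SETDB1 RNA remained well above the limit of detection. In CPM the level was 60.3 ± 4.30 in WT and 11.5 ± 0.644 in KO, a log2 fold change of -2.39 (edgeR adjusted p = 7.02e-43, SE 0.0788). A gene count sums the whole transcript and says nothing of which exons the remaining reads cover. The start of the gene is shown because this locus carried the alteration. The bases directly before the first annotated exon, from RefSeq promoter windows on GRCh38.p14 at chr1:150926138-150926262 on the plus strand, read 5′ to 3′ with an E-box (CACGTG) in capitals:

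SETDB1: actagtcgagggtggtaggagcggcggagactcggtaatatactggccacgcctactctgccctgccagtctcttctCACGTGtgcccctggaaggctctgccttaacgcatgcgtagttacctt

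On either strand, CACGTG was in 4.0% of 35116 RefSeq windows of the same length. The SETDB1 window held 8 CpG dinucleotides, beside a median of 6, with no TATA box (TATAAA), GC box (GGGCGG) or CCAAT.

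The genes around SETDB1 on the long arm of chromosome 1 (1q) were also lower in KO, so SETDB1 was read against them. Among its 25 nearest tested genes on each side, spanning 2.13 Mb, the median log2 fold change was -0.49. Of these 50 neighbours, 43 were below 0, 42 passed the test as lower and 4 passed as higher. Over the 578 other tested genes of 1q the median was -0.47, with 91.5% below 0, beside a median of 0.02 and 45.3% below 0 over the 781 tested genes of the short arm. The lower levels of the neighbours were thus shared along the arm, and their median change was smaller than that of SETDB1 itself. Of the 578 other 1q genes, 19 had a lower log2 fold change than SETDB1, beside 8 of the 781 genes of the short arm. Of the 50 neighbours only MTMR11 had a lower log2 fold change than SETDB1, with 15, 10 and 20 counts in WT and 2, 3 and 2 in KO, a ratio of WT to KO of 6.70 with an exact 95% counting interval of 3.00 to 17.6.

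In each library, the log2 CPM of SETDB1 minus the median log2 CPM of the 50 neighbours was taken. This difference was 0.36, 0.25 and 0.16 in WT and -1.47, -1.69 and -1.68 in KO. SETDB1 lay above its neighbours in each WT library and below them in each KO library. The group means differed by -1.87 log2 units, so that SETDB1 was 3.67-fold lower relative to its neighbours, with a two-sided exact permutation p of 0.1, the smallest that 3 against 3 libraries can give. Against all tested 1q genes the difference was -1.89, and against the 44 tested genes within 1 Mb it was -2.11.

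The genes directly beside SETDB1 moved far less than SETDB1, with one exception in the other direction. On the side of lower coordinates, GOLPH3L, a Golgi phosphoprotein gene, had a log2 fold change of -0.16 (edgeR adjusted p = 0.0505, SE 0.0691). ARNT, which encodes a bHLH-PAS partner of the aryl hydrocarbon receptor, changed by -0.39 (SE 0.0536, adjusted p = 2.34e-09). HORMAD1, a meiotic chromosome axis gene between them, had 0 counts in all WT libraries and 17, 21 and 14 counts in KO, which was at least 16.6-fold higher against a limit of 3 counts over the WT group. On the other side, CERS2, a ceramide synthase gene whose last exons run into those of SETDB1 on the opposite strand, changed by -0.50 (SE 0.0411, adjusted p = 1.35e-18). ANXA9 changed by -0.74 (SE 0.267, adjusted p = 0.0157) and MINDY1, a deubiquitinase gene, by -1.03 (SE 0.123, adjusted p = 1.79e-11). The ANXA9 call rested on 2.55 CPM in WT and was lost without WT replicate 3 (adjusted p = 0.0725), without KO replicate 2 (0.0542) or with DESeq2 (0.102). GOLPH3L, just short of the threshold, was called in 5 of its 13 alternatives.

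**Figure D2:**
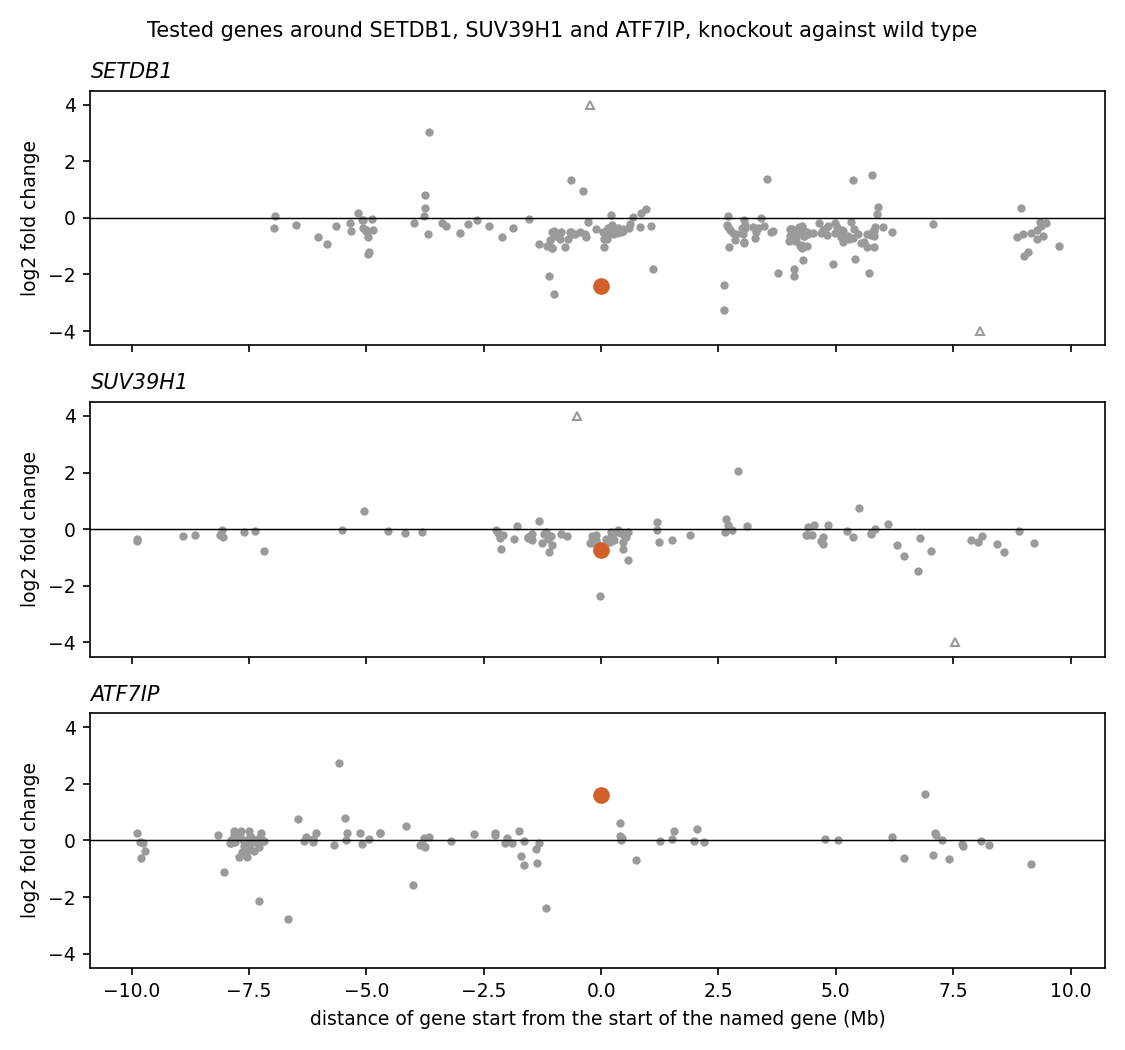
Log2 fold change, KO against WT, of tested genes within 10 Mb of SETDB1, SUV39H1 and ATF7IP by distance of the gene starts in Mb, with the named gene as the large orange point and genes beyond ±4 drawn as open triangles at the edge. SETDB1 at -2.39 lay below a band of neighbours with a median of -0.49, and ATF7IP at 1.62 lay above neighbours with a median near 0.

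The pattern of SETDB1 over the 6 non-directional libraries was most like that of S100A6, EMP1 and LRFN5, by Euclidean distance of log2 CPM centred on each gene's mean (0.229, 0.243 and 0.265). S100A6, which encodes a calcium-binding protein, also lies on 1q, with its start 2.61 Mb from that of SETDB1. Its log2 fold change was -2.37, while EMP1 on chromosome 12 had -2.38 and LRFN5 on chromosome 14 had -2.43. Over 6 libraries in 2 groups, this distance mostly reflects how near a gene's log2 fold change is to that of SETDB1. It does not show shared regulation. By log2 fold change, 1.45% of all tested genes lay below SETDB1.

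Among the partners of SETDB1, ATF7IP moved most. ATF7IP (ENSG00000171681, chr12:14365632-14502935, plus strand) had 586, 502 and 543 counts in WT and 1675, 1780 and 1800 in KO. Each KO library was more than double any WT library and the spread within a genotype was small. The level was 57.5 ± 0.682 CPM in WT and 177 ± 5.01 CPM in KO, a log2 fold change of 1.62 (edgeR adjusted p = 3.69e-49, SE 0.0435). By log2 fold change, 98.0% of tested genes lay below ATF7IP. Its own neighbourhood on chromosome 12 did not share the rise. The 50 nearest tested genes had a median log2 fold change of -0.0011, with 9 called higher and 8 called lower, and 49 of the 50 were below ATF7IP. The remaining gene, SLCO1A2, an organic anion transporter gene, stood at 1.64. EMP1, named above for its likeness to SETDB1, was the lowest of these 50.

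The start of ATF7IP is shown as that of the member that rose. The bases directly before its first annotated exon, at chr12:14365507-14365631 on the plus strand of GRCh38.p14 from RefSeq, carried CCAAT and GGGCGG motifs, in capitals on whichever strand they were read:

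ATF7IP: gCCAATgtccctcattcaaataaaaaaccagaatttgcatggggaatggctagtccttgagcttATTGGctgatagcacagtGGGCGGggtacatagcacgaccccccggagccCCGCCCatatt

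The window held 2 matches of CCAAT and 2 of GGGCGG, no match of one overlapping the other, with no CACGTG or TATAAA. The letters CCAAT were found in 21.0% and GGGCGG in 34.5% of the 35116 windows, beside 5.82% for TATAAA, and the 4 CpG dinucleotides compared with the median of 6. A match of letters is a description of the window only.

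Since ATF7IP rose while SETDB1 fell, their ratio per kilobase of exon changed by more than either. The ratio of ATF7IP to SETDB1 was 0.484, 0.497 and 0.563 in WT and 7.63, 9.03 and 8.20 in KO. SETDB1 was the more abundant RNA of the pair in each WT library and ATF7IP in each KO library. The mean ratio went from 0.515 ± 0.0421 to 8.29 ± 0.702 (SD, n = 3), 16.1-fold. The exact permutation p was 0.1, the smallest possible. As each gene alone separated the genotypes, in opposite directions, this p was set in advance and adds no evidence.

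ATF7IP2 (ENSG00000166669, chr16:10326434-10483638), the relative of ATF7IP that can also bind SETDB1, did not follow it. It had 214, 193 and 211 counts in WT and 210, 217 and 237 in KO, and the groups overlapped in CPM. The log2 fold change was 0.04, with an approximate 95% interval of -0.13 to 0.20 (edgeR adjusted p = 0.751), an interval that leaves out a change of the size seen for ATF7IP.

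TRIM28 (ENSG00000130726, chr19:58544091-58550722) is the scaffold that brings SETDB1 to KRAB zinc finger targets. Its CPM was 1104, 1218 and 1108 in WT and 1063, 1061 and 1055 in KO. The KO libraries were all below the WT libraries, of which replicate 2 was the highest. The log2 fold change of -0.11 (edgeR adjusted p = 0.000167, SE 0.0254) was small and became -0.06 without WT replicate 2 (adjusted p = 8.61e-05). With the KO libraries summed into 1 the adjusted p was 0.0487.

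SETDB2 (ENSG00000136169, chr13:49444374-49495003), the methyltransferase closest to SETDB1 in domain layout, was the least abundant member in WT. It had 110, 120 and 120 counts in WT and 136, 163 and 159 in KO. The KO values in CPM lay above the WT values by a narrow margin, with 13.9 as the lowest in KO and 13.6 as the highest in WT. The log2 fold change was 0.32 (edgeR adjusted p = 0.00893, SE 0.107). This call was lost without WT replicate 1 (0.22, adjusted p = 0.121), without KO replicate 2 (0.26, adjusted p = 0.0650), with DESeq2 (adjusted p = 0.0758) and in a single fit over all 12 libraries (adjusted p = 0.0534). In that single fit the median log2 fold change of all genes was -0.06, in place of -0.0012, so its values are read against that shift.

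SUV39H1 and SUV39H2, a pair of related enzymes, differed in what they did. SUV39H1 (ENSG00000101945, chrX:48695554-48709012) had 626, 579 and 547 counts in WT and 351, 366 and 382 in KO, and each KO library was below each WT library. The level was 61.8 ± 3.47 CPM in WT and 36.9 ± 0.895 CPM in KO, a log2 fold change of -0.74 (edgeR adjusted p = 4.59e-19, SE 0.0592). SUV39H2 (ENSG00000152455, chr10:14878820-14904315) had 48.9 ± 3.75 CPM in WT and 48.9 ± 1.61 CPM in KO, and its log2 fold change of -0.01 had an approximate 95% interval of -0.12 to 0.11 (adjusted p = 0.954). The interval of SUV39H1, -0.86 to -0.62, lay wholly below that of SUV39H2.

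The genes around SUV39H1 were lower too, though by less. Of its 50 nearest tested genes on the X chromosome, 46 had a log2 fold change below 0, 28 passed as lower and 1 as higher, and their median was -0.26. SUV39H1 was below 47 of the 50. Measured per library against the median log2 CPM of these neighbours, SUV39H1 was lower by a difference of -0.35 between the group means, with WT libraries at 0.85 to 0.99 and KO libraries at 0.52 to 0.65. For the members that did not pass the test, this measure was -0.31 (SUV39H2), 0.38 (EHMT2), 0.19 (ATF7IP2) and 0.06 (EHMT1). By this measure alone, the size of the SUV39H1 difference was within that of the uncalled EHMT2. The gene at the median can change from library to library, so the fold changes are given too. SUV39H1 changed by -0.74 beside a neighbour median of -0.26. The uncalled members lay nearer to their neighbour medians, with SUV39H2 at -0.01 beside 0.05 and EHMT2 at -0.08 beside -0.05. ATF7IP2 was at 0.04 beside -0.02 and EHMT1 at 0.02 beside -0.08.

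**Figure D3:**
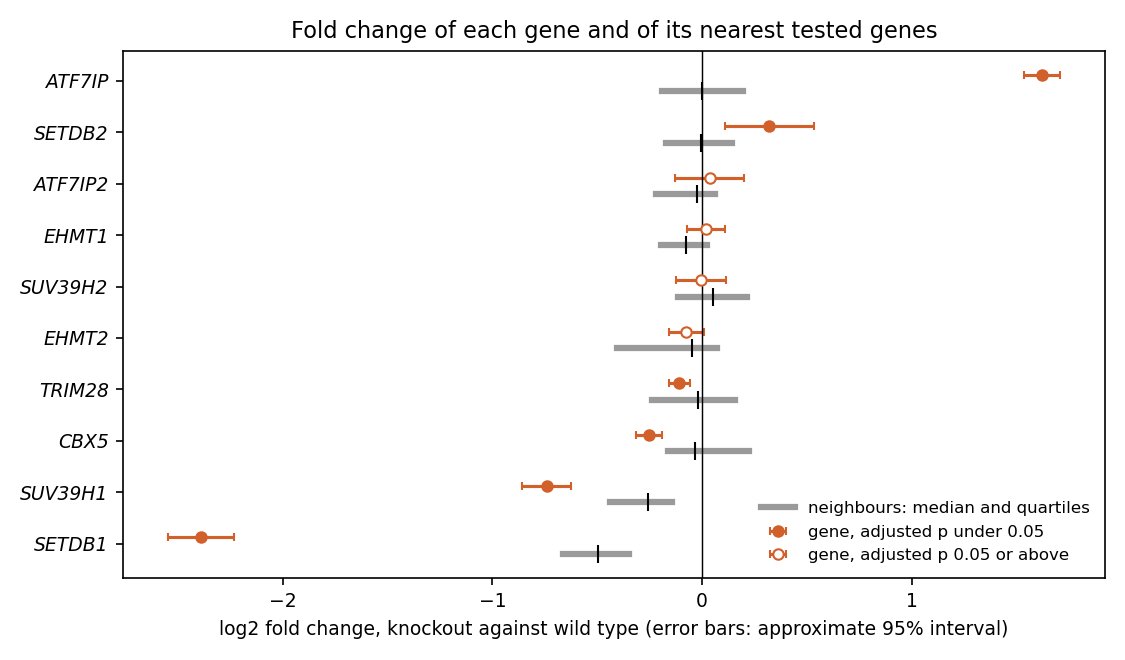
Log2 fold change of each gene, KO against WT, with an approximate 95% interval (orange, filled where the adjusted p was under 0.05), and the median (black tick) and quartiles (grey bar) of its nearest tested genes, up to 25 on each side. The neighbours of SETDB1 and SUV39H1 had medians of -0.49 and -0.26, and those of the other genes lay between -0.08 and 0.05.

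EHMT1 and EHMT2 encode GLP and G9a. EHMT1 (ENSG00000181090, chr9:137618963-137870016) had 96.0 ± 4.99 CPM in WT and 97.2 ± 2.55 CPM in KO, a log2 fold change of 0.02 with an approximate 95% interval of -0.07 to 0.11 (edgeR adjusted p = 0.759). EHMT2 (ENSG00000204371, chr6:31879759-31897687) had 119 ± 6.93 CPM in WT and 113 ± 2.29 CPM in KO, a log2 fold change of -0.08 with an interval of -0.16 to 0.01 (adjusted p = 0.129). The WT and KO libraries overlapped for both genes. EHMT2 passed the test without WT replicate 3 (-0.11, adjusted p = 0.0393) and in the single fit over 12 libraries (-0.14 beside the shift of -0.06, adjusted p = 0.0132). The uncalled values of EHMT1 and SUV39H2 changed sign when single libraries were left out.

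CBX5 (ENSG00000094916, chr12:54230940-54280133, minus strand) stood at 316, 300 and 321 CPM in WT and 257, 264 and 266 CPM in KO. All KO libraries were below all WT libraries. The log2 fold change was -0.25 (edgeR adjusted p = 6.38e-11, SE 0.0312), a level 1.19-fold lower. Its 50 neighbours, at a median of -0.04, had 13 called in each direction, and 41 of them were above CBX5. By the per-library measure used for SETDB1, the difference between KO and WT was 1.70 for ATF7IP, 0.49 for SETDB2 and 0.38 for EHMT2, and it was -0.42 for CBX5 and -0.31 for SUV39H2. The gene at the median can change from library to library, so this measure need not equal the gap between a member's log2 fold change and that of its neighbours.

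Other genes of the H3K9 pathway were read from 5 lists of 42 genes, of which 41 were tested. Of these, 25 passed, 19 higher and 6 lower in KO, beside the 51.5% of all genes and a median over all genes of -0.0012. The balance moved with the fit, since a single fit over 12 libraries called 10 higher and 13 lower, while over all genes it called 2400 higher and 4170 lower in place of 3517 and 3572, with the median of all genes at -0.06. Without WT replicate 2 the lists gave 16 higher and 11 lower, and with the KO libraries summed into 1 they gave 13 higher and 4 lower.

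The H3K9 demethylases, the enzymes that remove the mark, had the most members called higher. Of 12 tested, 8 were higher, none was lower and 4 did not pass, beside 25.5% higher and 25.9% lower over all genes, and the median log2 fold change was 0.20. The same shares of all genes apply to the counts of the 4 lists that follow. In the single fit over 12 libraries 6 were higher and 1 was lower, with DESeq2 6 were higher, and with the KO libraries summed into 1 the count was again 8. KDM4E had 23.3 ± 2.08 CPM in WT and 37.1 ± 0.973 CPM in KO (0.68, SE 0.0740, edgeR adjusted p = 6.85e-13). KDM7A, a plant homeodomain demethylase gene, had 17.7 ± 2.07 and 25.4 ± 0.929 CPM (0.51, SE 0.0865, adjusted p = 4.08e-07). The smallest called changes were those of KDM3B at 0.20 (adjusted p = 9.17e-06) and JMJD1C at 0.20 (adjusted p = 0.0168). KDM4D and KDM4E are closely similar copies on chromosome 11 and reads may be split between them, so their values are uncertain. JMJD1C lost its call without WT replicate 3 (adjusted p = 0.117), without KO replicate 2 (0.0977), with DESeq2 (0.0951) and in the single fit over 12 libraries (0.159).

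The argonaute genes encode the small-RNA binding proteins that the title of the study ties to SETDB1. AGO1 rose from 134 ± 6.22 to 216 ± 3.97 CPM (0.69, SE 0.0367, edgeR adjusted p = 3.45e-29) and AGO2 from 193 ± 5.19 to 256 ± 1.13 CPM (0.40, SE 0.0330, adjusted p = 1.46e-18). AGO3 and AGO4 did not pass, at 0.08 and -0.18. The list had a median of 0.24 over 4 genes, and with the KO libraries summed into 1 the count was again 2 higher.

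Among 14 partners and regulators of SETDB1 and TRIM28, 7 were higher, 2 were lower and 5 did not pass, with a median of 0.02. In the single fit over 12 libraries this list had 2 higher and 7 lower and a median of -0.04, beside -0.06 for all genes, so that its median lay slightly above that of all genes in both fits. With the KO libraries summed into 1 it had 3 higher and 1 lower. MBD1, a methyl-CpG binding protein gene whose product works with SETDB1, was at 0.27 (edgeR adjusted p = 5.61e-07, SE 0.0456), and ZNF274, a zinc finger protein that recruits SETDB1 to zinc finger genes, was at 0.21 (SE 0.0623, adjusted p = 0.00294). CHD3, a remodeller of the NuRD complex that TRIM28 binds, was at -0.31 (SE 0.0278, adjusted p = 1.22e-16). SUMO2 was at -0.08 (SE 0.0332, adjusted p = 0.0413), a call lost without WT replicate 1 or 3 and without KO replicate 1 or 2 (adjusted p of 0.0507 to 0.260), with no filter on low counts (0.0603), with DESeq2 (0.121) and with the KO libraries summed into 1 (0.279). ZNF274 lost its call in the single fit over 12 libraries (adjusted p = 0.0612).

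Of 6 tested readers of the mark (7 listed, CDYL2 too low to test), 1 was higher and 2 were lower, with a median of -0.02. CBX1, encoding HP1 beta, was at 0.13 (edgeR adjusted p = 0.00312, SE 0.0372), CBX3, encoding HP1 gamma, was at -0.09 (SE 0.0320, adjusted p = 0.0142), and UHRF1, which also reads hemimethylated DNA, was at -0.19 (SE 0.0312, adjusted p = 1.55e-07). The CBX3 call was lost without WT replicate 1, KO replicate 1 or KO replicate 2 (adjusted p of 0.0804 to 0.0999), with DESeq2 (0.0618) and with the KO libraries summed into 1 (0.191). The CBX1 call was lost in the single fit over 12 libraries (0.06, adjusted p = 0.257) and with the KO libraries summed into 1 (adjusted p = 0.0544), which left the list with 0 higher and 1 lower. Together with CBX5 at -0.25, the 3 HP1 genes had different values, with CBX5 the lowest.

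Among 5 PR-domain and EHMT partner genes, 1 was higher and 2 were lower, with a median of -0.08. PRDM16 had 28, 21 and 18 counts in WT and 0, 1 and 1 in KO, a ratio of WT to KO of 34.9 with an exact 95% counting interval of 9.30 to 294. MECOM, its relative, fell from 39.6 ± 2.33 to 26.3 ± 1.12 CPM (-0.59, SE 0.0706, edgeR adjusted p = 1.90e-11). PRDM2 was at 0.13 (SE 0.0499, adjusted p = 0.0211), a call lost without WT replicate 2 (adjusted p = 0.150), without KO replicate 2 (0.11), with DESeq2 (0.103), in the single fit over 12 libraries (0.336) and with the KO libraries summed into 1 (0.0869), which left this list with 0 higher and 2 lower.

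**Figure D4:**
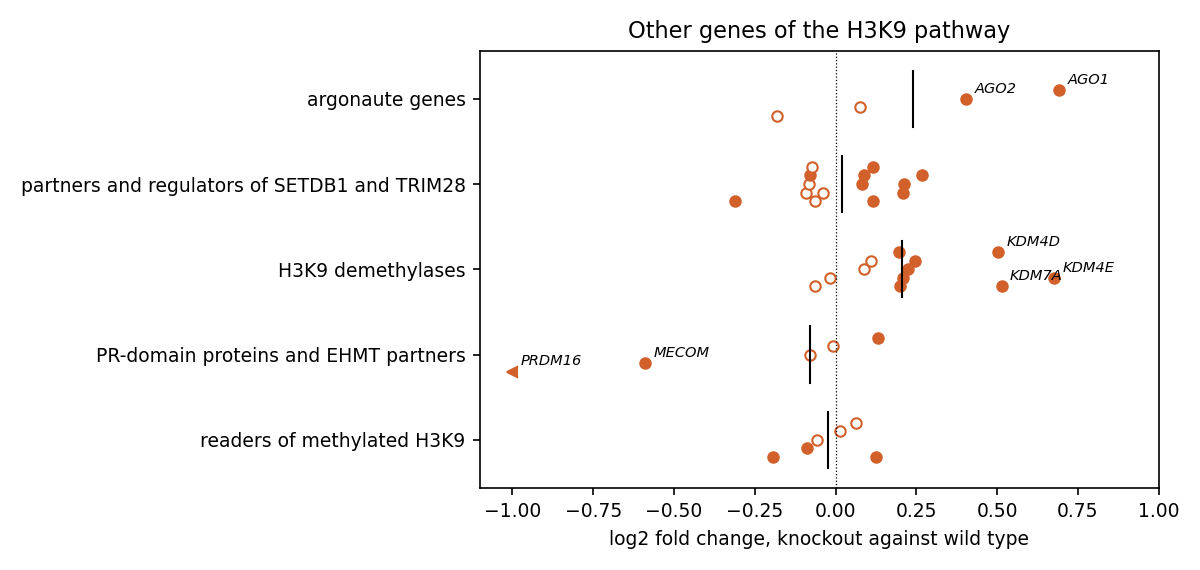
Log2 fold change, KO against WT, of the 41 tested genes in 5 lists, filled where the adjusted p was under 0.05, with a black line at each list's median and PRDM16 drawn as a triangle at the edge of the axis. Of the 12 demethylase genes 8 were called higher and none lower.

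The directional libraries gave a second look at the same genes, with few of their reads counted in genes. In each directional library 94.6% of reads fell in no feature, and the strand setting of the counting is not given in the sources used here. The directional counts of single members were 0.124% to 2.77% of their non-directional counts, beside 6.13% for all genes. Over the 6 directional libraries the members had 1 to 360 counts in all, and only SETDB1, TRIM28 and EHMT2 passed the filter among 4745 genes tested, of which 16.2% were called. SETDB1 had 12, 17 and 7 counts in WT and 6, 4 and 11 in KO. The groups overlapped in counts and no difference was detectable with these counts, the log2 fold change being -0.71 (approximate 95% interval -1.52 to 0.10, edgeR adjusted p = 0.256, and 0.104 to 0.658 over the alternatives). TRIM28 stood at 0.02 and EHMT2 at 0.53, neither called.

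A genotype by kit term over all 12 libraries asked whether the KO difference in the counts assigned to a gene depended on the kit. As the strand setting of the counting is not known, the term does not isolate a change in a member's own RNA. The kits also differed in non-unique reads, which numbered 797850 to 897413 in each non-directional library and 0 in each directional library. Why they differed was not tested. The term passed for 1.82% of 15832 genes and, of the members, for SETDB1 (edgeR adjusted p = 0.0102). For SETDB1 it was 1.74 log2 units (SE 0.453), in the direction of a smaller KO difference in counts in the directional kit. The call was lost without WT directional replicate 1 (adjusted p = 0.0555), WT directional replicate 3 (0.129), KO directional replicate 1 (0.0542) or KO directional replicate 3 (0.660). For SUV39H1 the term was 1.86 (SE 0.669, adjusted p = 0.179).

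Of the 10 members, 5 share exons with an annotated gene on the opposite strand that had counts in the directional libraries. This look was chosen after seeing the data. CERS2, which shares 948 bp with SETDB1, or 13.4% of its exon length, had 268, 296 and 218 directional counts in WT and 74, 59 and 60 in KO. These groups were far apart, with a log2 fold change of -1.96 (edgeR adjusted p = 2.60e-29, SE 0.108), beside -0.50 for CERS2 and -2.39 for SETDB1 in the non-directional libraries. The genotype by kit term of CERS2 was -1.39 (SE 0.125, adjusted p = 1.53e-25).

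AC231533.1, an antisense gene that shares 685 bp or 20.3% of the exon length of SUV39H1, had 207, 249 and 198 directional counts in WT and 144, 114 and 130 in KO, with no overlap. Its log2 fold change was -0.70 (edgeR adjusted p = 6.45e-09, SE 0.0961), beside -0.74 for SUV39H1 in the non-directional libraries, where AC231533.1 had at most 1 count. EHMT2-AS1, opposite EHMT2, had 407, 481 and 346 counts in WT and 384, 346 and 323 in KO (-0.17, SE 0.0671, adjusted p = 0.0704), beside -0.08 for EHMT2. DCLRE1C, opposite SUV39H2, stood at -0.0014 and AL590627.1, opposite EHMT1, at -0.06, neither called. MIR3198-2 and AL590627.2, on the same strand as CBX5 and EHMT1, had 0 counts in all 12 libraries, and AL772363.1, antisense to EHMT1, had at most 3. How many of a partner's directional counts came from transcripts of the member itself was not tested.

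**Figure D5:**
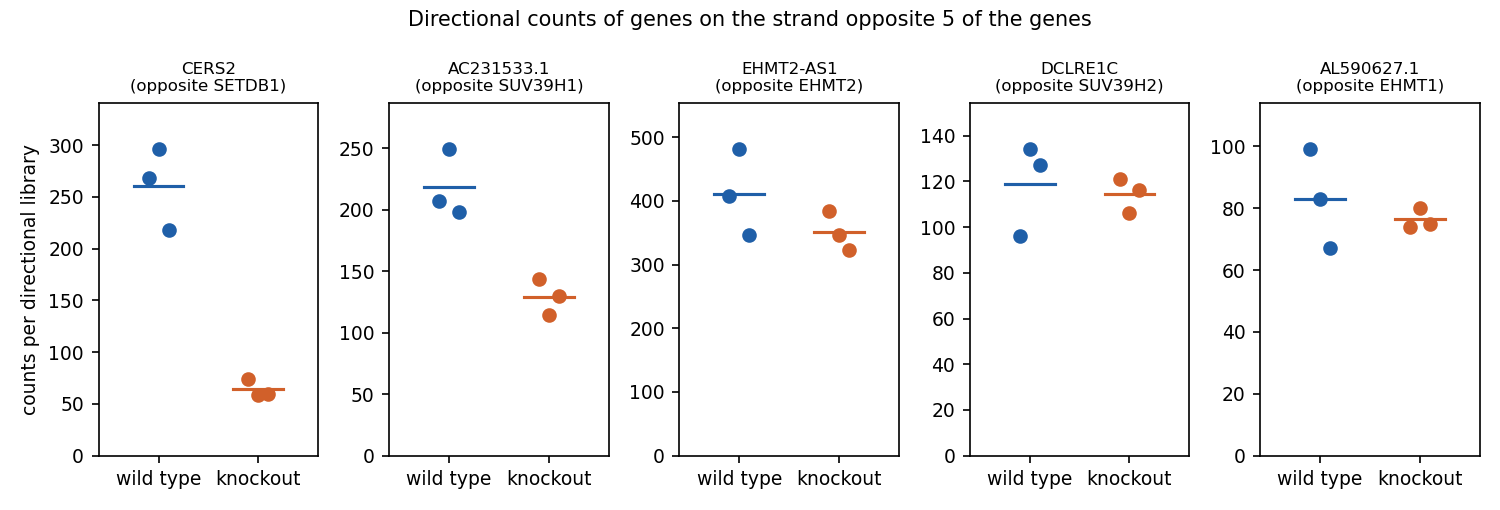
Directional counts per library, not scaled for depth, of the 5 genes that lie opposite SETDB1, SUV39H1, EHMT2, SUV39H2 and EHMT1, with WT in blue, KO in orange, a line at each mean of 3 libraries, and each axis starting at 0. CERS2 went from 218 to 296 counts in WT to 59 to 74 in KO, and the WT and KO counts of EHMT2-AS1 overlapped.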

How the data were processed

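Raw gene counts from 12 HAP1 libraries were analysed. The deposited counts were made by the authors, whose processing notes list Trim Galore 0.4.4, STAR 2.6.0a, SAMtools 1.9, Picard 2.23.8, HTSeq 0.11.1, DESeq2 3.14, bedtools and the hg38 build. The rows for no feature, ambiguous and non-unique reads were left out of library sizes. The tables of L1 elements were not used. The members, the gene lists and the comparisons were chosen with earlier results of these data known. In R 4.3.3, edgeR 4.0.16 was used with a minimum count of 10 and a minimum total of 15 (filterByExpr), TMM scaling, the quasi-likelihood F-test and Benjamini-Hochberg adjustment over all genes tested, with a threshold of 0.05. The SE was taken from the F statistic (the size of the log2 value over the root of F) and is approximate, as are its intervals. DESeq2 1.42.0 was an alternative. The log2 CPM values used a prior count of 2. The kits were fitted apart, except for the genotype by kit term.

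The named genes were all members, the 2 highest and 2 lowest called genes of each list, the 3 tested genes on each side of SETDB1, the 3 genes most like SETDB1, and genes that share exons with a member. MTMR11, SLCO1A2, KDM4D, AGO3, AGO4 and CDYL2 were named after their values were seen. Of the 10 members 8 had a RefSeq promoter window. Counting intervals and the limit of 3 counts cover counting error only. The neighbours of a member are the 25 nearest tested genes on each side on its chromosome, fewer at a chromosome end.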

Additional observations from a re-analysis of the deposited data

Results flagged for a closer look

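SETDB1 had a genotype by kit term of 1.74 log2 units (SE 0.453, edgeR adjusted p = 0.0102), flagged because the effects under the same contrast differed between the kits. The call was lost when any of 4 of the 6 directional libraries was left out, with values down to 1.08 (adjusted p of 0.0542 to 0.660). SETDB1 had 57 counts over the 6 directional libraries, 2.77% of its 2055 non-directional counts, beside 6.13% for all genes and 0.124% to 0.878% for the other 9 members. The part of reads from the opposite strand was not tested. CERS2, which shares exons with SETDB1 on the opposite strand, had a term of -1.39 (SE 0.125, edgeR adjusted p = 1.53e-25), in the other direction.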

How the results depend on the processing

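SETDB1, ATF7IP, SUV39H1, CBX5 and TRIM28 kept their direction and their call under all 13 alternatives tried for each. Over those 13, SETDB1 ranged from -2.45 to -2.35, ATF7IP from 1.56 to 1.64 and SUV39H1 from -0.80 to -0.70. Requiring a fold of at least 2 left 1074 genes and 2 members. Leaving out 1 library gave 6394 to 7134 genes, 5 to 7 members and 20 to 27 genes of the lists. DESeq2 called 5359 genes, 5 members and 18 list genes, and the KO libraries summed into 1, an alternative added after seeing the data, gave 6030, 6 and 17. The single fit over 12 libraries turned the direction of the uncalled EHMT1 (-0.043) and ATF7IP2 (-0.026), each by about the shift of the median of all genes in that fit, from -0.0012 to -0.061. Without single libraries SUV39H2 ranged from -0.057 to 0.053 and EHMT1 from -0.021 to 0.052, none called, and in the directional libraries DCLRE1C ranged from -0.15 to 0.12 and AL590627.1 from -0.15 to 0.063. DCLRE1C was at 0.0021 with DESeq2 size factors. The causes of the other changes were not tested. SETDB1 against its neighbours ranged from -2.31 to -1.82, with the lowest value when no filter on low counts was used, and from -1.95 to -1.82 without single libraries. Members with a genotype by kit term numbered 0 to 1 without single libraries. By the longest transcript 5 members kept their rank in WT. The replicate numbers did not pair the libraries (correlations of deviations between -0.0249 and -0.0012). The replicate block called 7074 genes, 7031 of them shared with the 7089, and changed no call of a member. It left SETDB1 against its neighbours at -1.87, with a sign-flip p of 0.25. In the directional libraries SETDB1 had 4 to 17 counts a library, and its log2 fold change ranged from -1.21 to -0.44 without single libraries.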
